A study of Mus musculus with 12 samples.

Results

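The genes studied were 9 genes of the complement system, followed through the colon and the whole blood of 6 mice. They were chosen by name, as the rows of the deposited normalized tables whose gene name was C1ra, C4b, C2, C3, Cfb, Cfi, Serping1, C3ar1 or C5ar1. All 9 of these genes, out of 53801 genes in the count table, were in the colon table of 32689 genes. The blood table of 25514 genes held 8 of them and lacked Cfi, which had 0 counts in every blood library.

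Complement is a cascade of plasma proteins that tags microbes and damaged cells for uptake and calls in leukocytes. The classical pathway starts when the C1 complex, which contains the protease C1r, cuts C4 and C2. The alternative pathway uses factor B. Both lead to cleavage of C3, and the fragments C3a and C5a act on the receptors C3ar1 and C5ar1 of myeloid and other cells. The plasma proteins are made mainly in the liver, but epithelium, fibroblasts and macrophages of the gut also make several of them.

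The mice were male C57BL/6 animals, obtained at 8 weeks of age per the study's methods, of an acute colitis model of ulcerative colitis (UC). Per those methods, UC mice drank dextran sulfate sodium (DSS), a sugar polymer that injures the colon lining. They received it at 1.5% for 7 days, followed by plain water. Control mice drank the same water with no DSS, and all animals were killed on day 8. Mice 1, 2 and 4 are labelled UC and mice 7, 8 and 9 control. Which of these mice drank DSS is known here from the labels alone. Colon and blood came from the same 6 mice, which gave 4 labelled groups of 3 libraries.

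The total count was 69181049 to 103662306 per colon library and 80867247 to 142536804 per blood library. Of these counts, 4.90% to 6.50% in the colon and 35.9% to 65.4% in the blood fell on Rn7s1 and Rn7s2, which encode the abundant 7SL RNA. The tissue is stated in 2 fields of the labels, which are opposed in each of the 12 samples. The tissue field was used, and it went with the markers: the 8 colon epithelium genes summed to between 776500 and 2426600 normalized counts in the colon and to at most 486 in the blood, and the 5 red cell genes to at least 3896100 in the blood, where the colon had no more than 3910.

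The disease labels did not go with the inflammation genes. S100a8, which encodes a subunit of the neutrophil protein calprotectin, was at 5369, 33.1 and 22.3 normalized counts in the colon of the mice labelled UC (1, 2 and 4) and at 1888, 75.6 and 13340 in the mice labelled control (7, 8 and 9). Lcn2, encoding the iron-binding protein lipocalin 2, was at 1248, 96.7 and 99.8 in the libraries labelled UC and at 1208, 117 and 9158 in those labelled control. In both genes mice 1, 7 and 9 were high and mice 2, 4 and 8 were low, and the same 3 mice were highest for both in the blood. Every direction given here between UC and control is therefore a direction between labels.

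The values that follow are normalized counts, that is the count divided by 1 factor per library, which the authors set within each tissue. They are first given by mouse in the colon, in the order of the cascade.

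Of the classical pathway, C1ra, which encodes a C1r protease, was at 3262, 1599.8 and 1585 in mice 1, 2 and 4, labelled UC, and at 4529.7, 1156 and 7207 in mice 7, 8 and 9, labelled control. C4b, encoding complement C4, was at 10494, 2539 and 2721 in the mice labelled UC and at 12406, 2082 and 17894 in those labelled control. C2, encoding the protease that joins C4b to form the classical C3 convertase, was at 1094, 279 and 379 under the UC label and at 862, 239 and 956 under the control label. In all 3 genes mice 1, 7 and 9 were high and mice 2, 4 and 8 were low, so the labelled groups overlapped.

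C3 encodes the protein on which the pathways converge. It was at 48288, 4501 and 4621 in the mice labelled UC and at 24571, 3817 and 57232 in those labelled control. Mice 1 and 9 were highest, mouse 7 was between, and the other 3 lay close together. Cfb, encoding factor B, the protease of the alternative convertase, was at 10161, 9336 and 10161 under the UC label and at 8133, 8842 and 14673 under the control label. Only mouse 9 was set apart from the rest in Cfb, and mouse 7, high in C3, was the lowest.

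Of the regulators, Serping1, encoding the C1 inhibitor, was at 6509, 3632 and 3439 in the mice labelled UC and at 8937, 2506 and 13079 in those labelled control. Cfi, encoding factor I, the protease that inactivates C3b and C4b, was near the limit of detection with 19, 0 and 7 counts under the UC label and 3, 0 and 15 under the control label. A count of 0 allows up to 3 counts per library.

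Of the receptors, C3ar1, which binds C3a, was at 1009.7, 414 and 487 in the mice labelled UC and at 1410.01, 393 and 1036 in those labelled control. C5ar1, which binds C5a and is abundant on neutrophils, was at 564, 218 and 111 under the UC label and at 773, 118 and 238 under the control label. Mice 1 and 7 were the highest for C5ar1, and mouse 9 lay close to mouse 2. In such bulk tissue, a change in the number of cells of a type and a change in RNA per cell cannot be told apart.

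**Figure D1:**
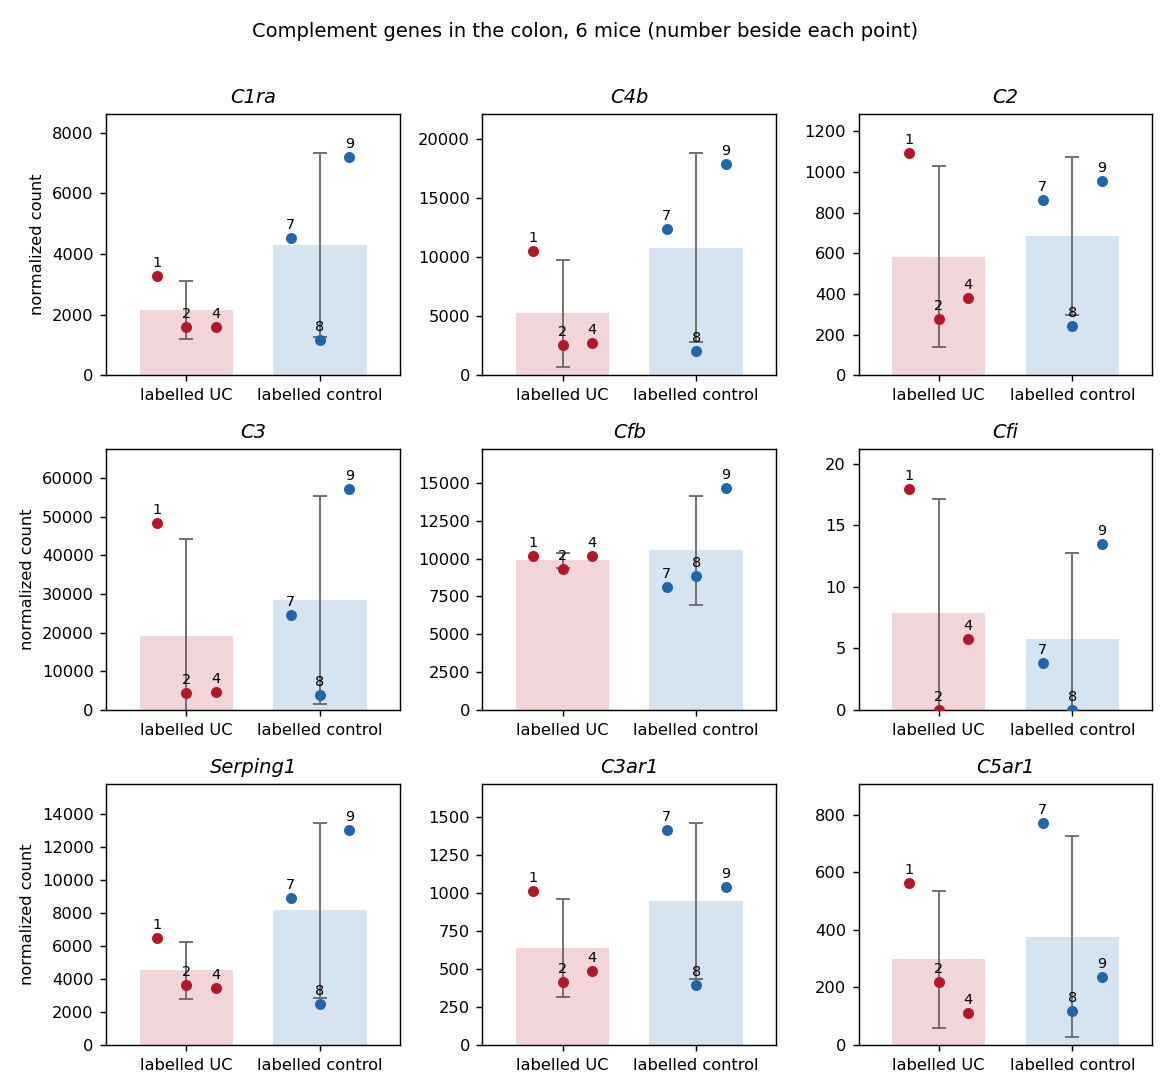
Normalized counts of the 9 complement genes in the colon (y axis, linear from 0) for the mice labelled UC (red) and control (blue); points are single mice with their number, bars are group means and whiskers 1 SD (n = 3), cut at 0. In all panels but Cfb and Cfi, mice 1, 7 and 9 hold the 3 highest values, and the labelled groups overlap in every panel.

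Of the 8 genes with a mean of at least 10 normalized counts, 7 (87.5%) had their 3 highest colon values in mice 1, 7 and 9, and the exception was Cfb. The same held for 18.3% of the 22123 colon genes above that mean. C3 ranged 15.0-fold from its lowest to its highest colon library, C4b 8.59-fold, C5ar1 6.99-fold, C1ra 6.24-fold, Serping1 5.22-fold, C2 4.57-fold and C3ar1 3.59-fold. Cfb ranged 1.80-fold. As the root mean square deviation from the gene's own mean on the log2 scale, the spread of C3 was 1.67 and exceeded that of 97.2% of the 15842 colon genes with a mean of at least 100 normalized counts. The spread of Cfb was 0.27, below the median of 0.31 over those genes.

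Divided by exon length, Cfb and C3 were the most abundant of the genes in the colon, with medians over the 6 libraries of 3451 (range 2879 to 5194) and 2838 (742 to 11128) normalized counts per kb. Serping1 followed at 2181 (1078 to 5625), C4b at 1160.2 (366 to 3142) and C1ra at 815 (388 to 2418). C3ar1 was at 174 (91.4 to 328), C2 at 160.3 (61.9 to 283), C5ar1 at 88.6 (43.0 to 301) and Cfi at 2.15 (0 to 8.11). The ranges of neighbours in this order overlapped, except that C1ra lay above C3ar1 and C5ar1 above Cfi in all libraries.

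The test of the UC label against the control label in the colon used edgeR's quasi-likelihood test, with significant differential expression (SDE) taken as an adjusted p no higher than 0.05 together with a log2FC beyond 1 in either direction. None of the 8 tested genes was SDE, where 1 of 22238 genes, the long noncoding RNA gene Gm26712, named after its values were seen, was (0.00450%). At an unadjusted p under 0.05 there were 313 genes and none of these 8, and DESeq2 called 6 genes and none of these 8. All 8 had lower fitted means under the UC label, with a median log2FC of -0.58 against -0.007 over all genes tested, of which 51.0% were lower. The log2FC was -1.04 (SE 0.86) for C4b, -1.004 (SE 0.64) for C1ra, -0.86 (SE 0.58) for Serping1 and -0.58 (SE 0.55) for C3ar1. It was -0.58 (SE 1.21) for C3, -0.36 (SE 0.85) for C5ar1, -0.24 (SE 0.69) for C2 and -0.10 (SE 0.24) for Cfb, and the edgeR adjusted p was 0.9999 for each of the 8. The study itself reported far more SDE genes in the colon. It named C3 among the genes SDE in both colon and blood, most of which it described as upregulated. The reason for this difference was not tested.

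The directions of C2, C3, Cfb and C5ar1 between the labels depended on single mice. With each mouse left out in turn, 6 of 48 values were reversed, all in these genes. C4b, C1ra, Serping1 and C3ar1 stayed lower under the UC label whichever mouse was left out. Without mouse 9, labelled control, the log2FC of C3 was 0.40, that of Cfb 0.20 and that of C2 0.05, and without mouse 2, labelled UC, that of C2 was 0.09. Without mouse 7 the log2FC of C5ar1 was 0.74, and without mouse 4 it was 0.03. Without mouse 1, labelled UC, the log2FC of C3 was -2.64 and that of C4b -2.04. The labelled groups overlapped in all 8, where 5.41% of genes had groups that did not overlap.

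**Figure D2:**
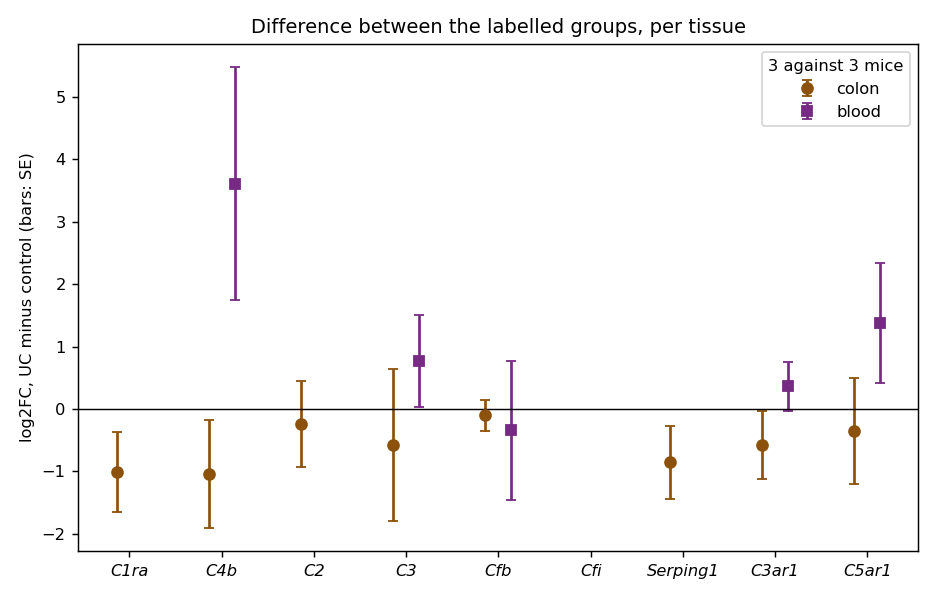
Log2FC of UC minus control (y axis, whiskers 1 SE) for the tested complement genes in the colon (circles) and the blood (squares), 3 against 3 mice each. The 8 colon values lie between -1.04 and -0.10 and the 5 blood values between -0.34 and 3.61, and no value passed the edgeR test.

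The list of 45 other complement genes was found whole in the count table, and 40 of its genes were in the colon table. Of 36 tested in the colon, none was SDE, 23 were lower under the UC label and the median log2FC was -0.42. C1rb, the close paralog of C1ra, had a log2FC of -1.13 (SE 0.54), and C4a, the close paralog of C4b, one of -0.20 (SE 0.35), each with an edgeR adjusted p of 0.9999. The 3 highest colon values lay in mice 1, 7 and 9 for 18 of the 37 other genes with a mean of at least 10 (48.6%), against 18.3% of all genes. They did so for C1rb, at 122, 71.4 and 65.2 in mice 1, 2 and 4 and at 240.3, 75.6 and 247 in mice 7, 8 and 9. They did not for C4a, at 156, 200.3 and 169 in the mice labelled UC and at 225, 126 and 249 in those labelled control.

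**Figure D3:**
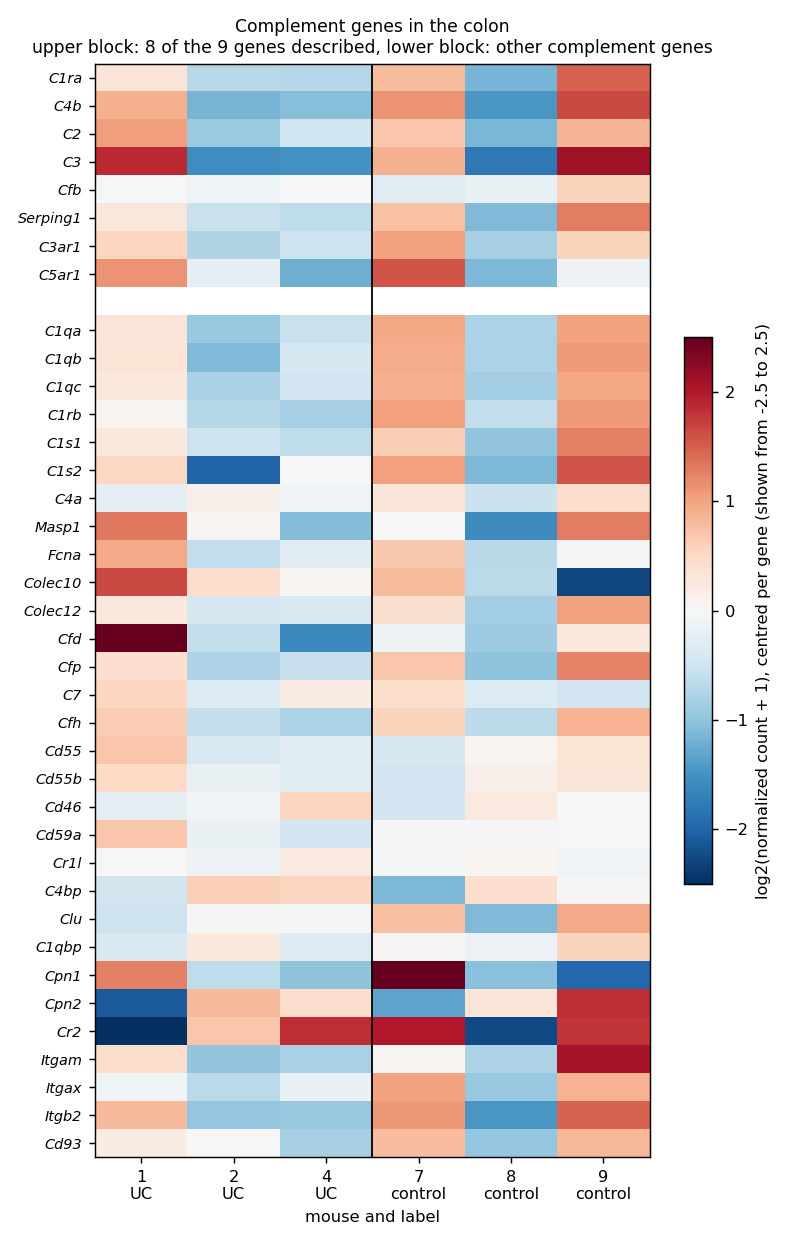
Log2(normalized count + 1) in the colon, centred per gene, for 8 of the 9 genes described (upper block) and 30 other complement genes with a mean of at least 100 (lower block); columns are mice with their label, red is above and blue below the gene's mean, with colours saturated beyond 2.5 in either direction. C1ra, C4b, C2, C3, Serping1, C3ar1 and the C1q genes are red in mice 1, 7 and 9, while Cfb, C4a and Cr1l are pale in all 6 columns.

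To find the genes most like each of the 9 in the colon, the root mean square over the 6 libraries of the difference between centred log2(normalized count + 1) values was taken for all 15842 genes with a mean of at least 100. Serping1 was nearest to C1s1 (0.07), which encodes the protease partner of C1r, then to the serotonin receptor gene Htr3a (0.10) and C1ra (0.11). C1ra was nearest to P2ry13 (0.08), encoding a nucleotide receptor of myeloid cells, Fxyd5 (0.10) and Serping1 (0.11). C1ra and Serping1, on different chromosomes, were thus the closest pair among the 9.

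C4b was nearest to Itgb2 (0.12), encoding the beta chain of leukocyte integrins, Ccdc88b (0.13) and Fcer1g (0.14), encoding a signalling chain of Fc receptors. C3ar1 was nearest to Txk (0.09) and Lck (0.10), which encode kinases of lymphocytes, and Plcb2 (0.11). C2 was nearest to Plppr3 (0.15), Sppl2a (0.15) and Sv2b (0.15). C5ar1 was nearest to Slc1a4 (0.14), Abcc8 (0.20) and Ctsw (0.25).

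C3 was nearest to Wfdc17 (0.22), Slc5a9 (0.26) and Lpo (0.26), and Cfb to Eif1ad (0.06), Rusc1 (0.06) and Inpp5b (0.07). C3 and Cfb were at a distance of 1.55, the second largest between any pair of the 9. Cfi, with a mean of 6.84 normalized counts, was nearest to Gm5431 (0.43), Gal (0.67) and St8sia1 (0.72). These distances rest on 6 libraries that each gene shares, and they are a description.

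Markers of some other cell types were highest in the same 3 mice. In the colon, mice 1, 7 and 9 held the 3 highest values for 9 of 10 neutrophil genes, 8 of 9 monocyte and macrophage genes, 4 of 5 T cell genes, 3 of 5 adipocyte genes and 3 of 7 fibroblast genes. They held them for 2 of 7 hepatocyte genes, 1 of 8 colon epithelium genes and 1 of 5 endothelium genes, and for none of the 5 smooth muscle, 5 red cell, 5 B cell and 5 platelet genes. The summed neutrophil genes were at 7473 to 37461 in the libraries labelled UC and at 17764 to 69359 in those labelled control. Ly6g was the highest of them at 7350.0 to 25479, and the sum rests largely on it. Ly6g ranged 3.47-fold over the colon libraries and S100a8 599-fold. In the blood Ly6g averaged 943 and 560 under the UC and control labels, where S100a9 averaged 102800 and 105180. The colon sum is therefore not read as neutrophil content. The summed monocyte and macrophage genes, led by Lyz2, were at 16159 to 37767 under the UC label and 15390 to 52009 under the control label. The T cell genes, led by Lck, were at 169 to 736 and at 175 to 847 in the same order. The fibroblast genes, led by Col3a1, were at 92419 to 137030 under the UC label and 83225 to 231420 under the control label. The highest genes of the other lists in the colon were Fabp4 (adipocytes), Tat (hepatocytes), Muc2 (colon epithelium), Vwf (endothelium), Myh11 (smooth muscle), Alas2 (red cells), Cd22 (B cells) and Pf4 (platelets). The part of these cells in the complement values was not tested.

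The 7 hepatocyte genes summed to between 4488 and 8806 normalized counts in the colon libraries labelled UC and to between 6189 and 7651 in those labelled control. Tat, an enzyme of tyrosine breakdown, was the highest at 1550.1 to 6963 and had its 3 highest values in mice 1, 7 and 9, as did Fgb, encoding the fibrinogen beta chain, at 0 to 69.3. Alb, encoding albumin, was at 0 to 72.3, with its 3 highest values in mice 1, 2 and 4. Ttr was at 155 to 2712, highest in mice 2, 4 and 8, and Cyp2e1 was at 105 to 1845. Apoa1 was at most 36.0 and Serpina1a at most 9.47. The hepatocyte sum rests largely on Tat, Ttr and Cyp2e1 and is not read as hepatocyte content. Adipoq, which marks adipocytes, was at 1309 in the colon of mouse 1 and at 144 or less in the other 5. Cfd, encoding the adipocyte protease factor D (adipsin) of the alternative pathway, was at 7955 in mouse 1 and at 331 to 1216 in the other 5.

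In the blood, C3 was at 2949, 473 and 582 normalized counts in mice 1, 2 and 4, labelled UC, and at 1024.5, 324 and 994 in mice 7, 8 and 9, labelled control. C5ar1 was at 2374, 232 and 148 under the UC label and at 486, 182 and 386 under the control label. In both genes mouse 1 was far above the other 5, and mice 7 and 9 followed. C4b was at 1160.5, 16.6 and 4.91 in the libraries labelled UC and at 62.0, 0 and 31.4 in those labelled control, so its level rested on mouse 1.

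C3ar1 lay between 89.6 and 110 in 5 of the blood libraries and at 41.4 in mouse 8. Cfb was at 141, 18.1 and 105 in the mice labelled UC and at 257, 72.4 and 4.96 in those labelled control, an order shared with neither C3 nor C5ar1. C1ra had 59 counts in the blood of mouse 1 and at most 9 in the others, C2 had at most 18 counts, and Serping1 had at most 14 counts with 0 in 3 of 6 libraries.

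Per kb of exon, C3 (median 153, range 63.0 to 573) and C5ar1 (120.3, 57.6 to 924) were the most abundant of the genes in the blood and did not differ beyond their spread. Cfb (31.3, 1.76 to 90.8) and C3ar1 (21.5, 9.61 to 25.4) followed. C4b (4.21), C2 (1.78), C1ra (1.59) and Serping1 (0.99) had medians under 5 normalized counts per kb.

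**Figure D4:**
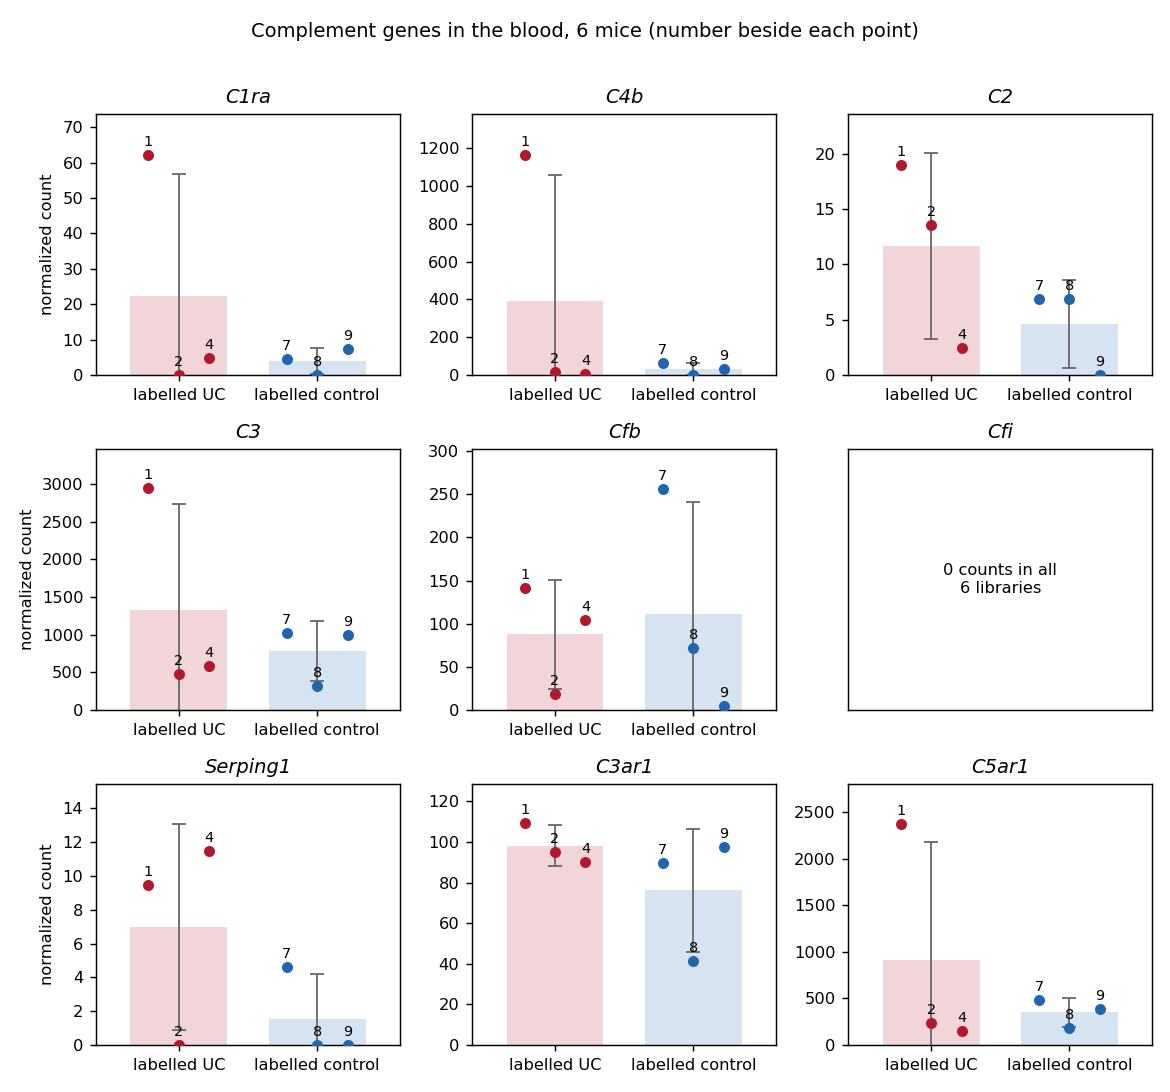
Normalized counts of the complement genes in the blood (y axis, linear from 0) for the mice labelled UC (red) and control (blue); points are single mice with their number, bars are group means and whiskers 1 SD (n = 3), cut at 0. Mouse 1 is the highest for C1ra, C4b, C2, C3, C3ar1 and C5ar1, and Cfi has no counts.

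In the blood 5 of the 9 genes passed the filter on low counts, and C1ra, C2, Cfi and Serping1 did not. None of the 5 was SDE between the labels, where 0 of 16759 genes (0%) was SDE by edgeR, 241 genes had an unadjusted p under 0.05 with none of the 5 among them, and DESeq2 called 6 genes. The log2FC was 3.61 (SE 1.87) for C4b, 1.37 (SE 0.96) for C5ar1, 0.77 (SE 0.73) for C3, 0.36 (SE 0.39) for C3ar1 and -0.34 (SE 1.11) for Cfb, each with an edgeR adjusted p of 0.9998. Their median of 0.77 stood beside 0.04 over all genes tested. Without mouse 1, labelled UC, the log2FC was -1.59 for C4b, -0.89 for C5ar1 and -0.56 for C3. The groups overlapped in all 5, while 6.50% of all genes had groups that did not.

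Mice 1, 7 and 9 held the 3 highest blood values for C4b, C3 and C5ar1 among the 6 genes with a mean of at least 10 (50%), against 11.8% of 16370 genes. For C3 the order of the mice was 9, 1, 7, 4, 2, 8 in the colon and 1, 7, 9, 4, 2, 8 in the blood. Mice 1, 7 and 9 also held them for 8 of 10 neutrophil genes in the blood, whose sum, led by S100a9, was 47303 to 456390 in the libraries labelled UC and 39361 to 352440 in those labelled control, and for 2 of 9 monocyte and macrophage genes (Lyz2 highest), 1 of 5 endothelium genes (Vwf highest) and 1 of 5 platelet genes (Ppbp highest). They held them for none of the genes of the other 8 lists, which were led in the blood by Col3a1, Car1, Acta2, Alb, Fabp4, Alas2, Lck and Ms4a1. Of the hepatocyte list only Alb was detected in the blood, at 11.6 in mouse 1 and at 0 in the others. The part of these cells in the blood values was not tested.

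The genes most like C3 in the blood were Pde1b (0.11), Slc2a6 (0.16) and Ggt5 (0.17), and those most like C5ar1 were Aatk (0.24), Mov10 (0.26) and Pxn (0.27). C3ar1 was nearest to Oxsm (0.11), Sfn (0.13) and A730011C13Rik (0.16). The nearest genes of the others lay farther off. They were Csf2rb2 (0.58), Plk3 (0.65) and Celsr3 (0.67) for C1ra, Rora (0.54), BC017158 (0.75) and Blcap (0.77) for C2, and 9330175E14Rik (0.46), Blcap (1.06) and Gm23624 (1.07) for Cfb. For C4b they were Mrgpra2a (1.20), Entpd3 (1.36) and Igfbp6 (1.41), and for Serping1 Gm42418 (0.83), Gm16286 (0.95) and Arid5a (0.95). C1ra, C2 and Serping1 had blood means of 13.2, 8.12 and 4.25 normalized counts, with 2, 1 and 3 libraries at 0. Their distances in the blood therefore rest on few counts.

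Whether the difference between the labels differed between colon and blood was asked as an interaction over all 12 libraries. None of the 8 tested genes passed (edgeR adjusted p of 1 for each), where 1 of 23258 genes (0.00430%), again Gm26712, passed. At an unadjusted p under 0.05 there were 793 genes and none of the 8, and DESeq2 called 19 genes and none of these 8. The interaction log2FC, colon effect minus blood effect, was -4.68 (SE 2.34) for C4b, -3.42 (SE 1.65) for C1ra, -2.97 (SE 1.44) for Serping1 and between -1.75 and 0.23 for the other 5. Without mouse 1 it was -0.33 for C4b and -0.95 for C1ra. Under a replicate block on the mouse number, since both tissues came from the same mice, again none of the 8 passed, and the value for C4b was -2.48.

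Colon and blood were then compared across all 12 libraries, as the mean of the 2 colon groups minus the mean of the 2 blood groups. The library kit differed with the tissue, since globin RNA was removed along with ribosomal RNA from the blood alone, so kit and tissue cannot be told apart. Of the 8 tested genes, 7 were SDE and higher in the colon, where 37.7% of 23258 genes were, and 1, C5ar1, was SDE and higher in the blood, where 20.8% were. Levels are given as CPM (counts scaled to a common library size) after TMM scaling.

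Serping1 was at 14.03 to 72.5 CPM in the colon and at 0 to 0.208 in the blood (log2FC 8.97, SE 0.79, edgeR adjusted p = 2.3e-06). C1ra was at 6.47 to 39.9 in the colon and at 0 to 1.14 in the blood (log2FC 6.54, SE 0.94, edgeR adjusted p = 9.0e-05). Cfb was at 46.4 to 81.3 against 0.0901 to 4.797 (log2FC 4.95, SE 0.77, edgeR adjusted p = 0.00016), and C2 at 1.34 to 6.07 against 0 to 0.347 (log2FC 4.74, SE 0.75, edgeR adjusted p = 0.00018). C3ar1 was at 2.20 to 8.04 against 0.738 to 2.003 (log2FC 1.46, SE 0.37, edgeR adjusted p = 0.0043). In these 5 of 8 genes each colon library lay above each blood library, which held for 34.3% of all genes.

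C4b overlapped between the tissues, at 11.7 to 99.2 CPM in the colon and 0 to 21.2 in the blood, with the blood of mouse 1 inside the colon range (log2FC 4.34, SE 1.27, edgeR adjusted p = 0.0098). Without mouse 1 its log2FC was 6.52. C3 overlapped too, at 21.4 to 317 against 5.78 to 53.9 (log2FC 2.80, SE 0.85, edgeR adjusted p = 0.0119). C5ar1 was at 0.603 to 4.41 in the colon and 2.69 to 43.4 in the blood (log2FC -2.48, SE 0.77, edgeR adjusted p = 0.0136). Without mouse 9 the call was lost for C3 (adjusted p = 0.0540) and for C5ar1 (adjusted p = 0.0575).

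None of the 8 genes had all blood libraries above all colon libraries, as 19.2% of genes did. Scaling by library size alone, in which the 7SL counts of the blood weigh in full, moved the median of all genes from 0.46 to 2.57 and the split of SDE genes from 8759 higher in the colon and 4845 higher in the blood to 17887 and 1757. Under it C5ar1 had a log2FC of -0.32 (adjusted p = 0.668). The other 7 were SDE and higher in the colon under each of the 3 scalings tried.

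**Figure D5:**
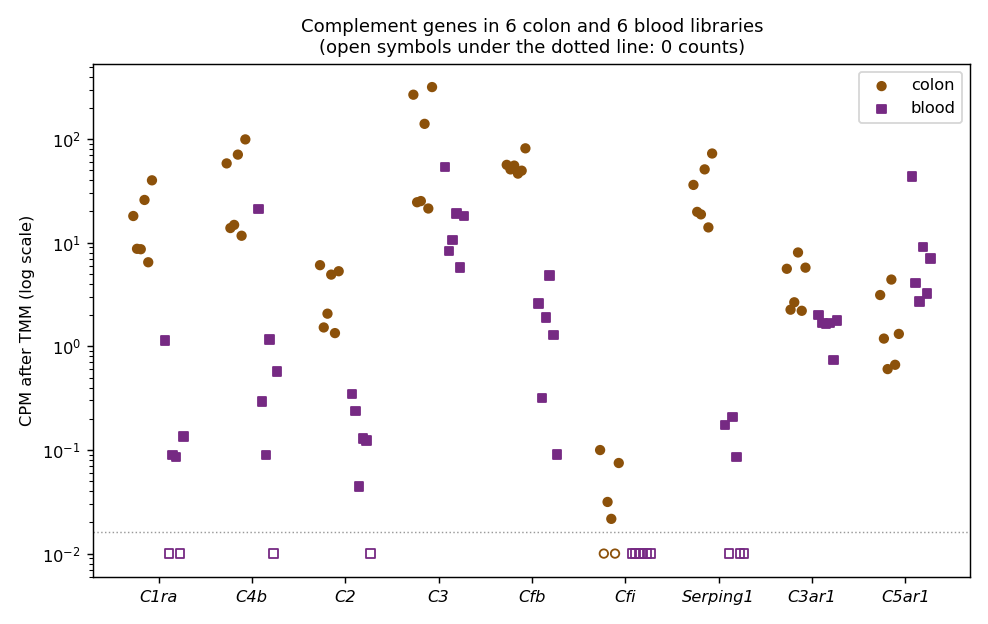
CPM after TMM scaling (y axis, log scale) of the 9 complement genes in the 6 colon libraries (circles) and the 6 blood libraries (squares); open symbols under the dotted line are libraries with 0 counts. Serping1, C1ra, Cfb, C2 and C3ar1 separate the tissues fully. C3, C4b and C5ar1 overlap in part, and of these C5ar1 has its highest values in the blood.

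Of the 45 other complement genes, 38 were tested between the tissues. By edgeR 22 were SDE and higher in the colon and 11 SDE and higher in the blood (37.7% and 20.8% over all genes). Under the replicate block on mouse number, 31 were SDE in either direction. The 5 with the highest log2FC among those with a mean of at least 100 counts were Cfd, C1s1, Cpn1, Cpn2 and C4bp. Cfd had 0 counts in all blood libraries, and against a floor of 3 counts per library its colon mean was at least 195-fold higher. That mean rested largely on mouse 1, at 44.1 CPM against 1.80 to 6.74 in the other mice. Cpn1 and Cpn2, encoding the subunits of carboxypeptidase N, which trims C3a and C5a, also had 0 counts in the blood. Their colon means were at least 47.4-fold and 30.4-fold higher. The Cpn1 mean rested largely on mouse 7, at 11.3 CPM against 0.259 to 2.48 in the other mice. C1rb, with 0 counts in the blood as well, had a colon mean at least 13.8-fold higher.

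C4bp, encoding the C4b-binding protein, had 3 counts over the 6 blood libraries, all in mouse 4. The ratio of colon to blood was 570-fold (95% exact interval of counting error 195 to 2760). This interval takes the coverage-derived counts as reads and can be too narrow. C1s1 was at 13.8 to 64.7 CPM in the colon and 0 to 0.184 in the blood (log2FC 11.99, SE 1.08). C4a was SDE and higher in the colon (log2FC 1.29, SE 0.48, edgeR adjusted p = 0.031), although its levels overlapped between the tissues.

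The 5 lowest were C5ar2 (log2FC -6.53, SE 1.02), the second C5a receptor, Cd59b (-6.25, SE 0.62), encoding a membrane inhibitor of the terminal complex, Itgb2 (-4.55, SE 0.61), Clu (-4.17, SE 0.34), encoding clusterin, and Cr2 (-3.87, SE 0.85), a C3d receptor of B cells. In each of these 5 every blood library lay above every colon library. The receptors C5ar1 and C5ar2 were thus both higher in the blood, while C3ar1 was higher in the colon.

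Several of the genes lie close to others, which bears on their counts. By GENCODE vM21 (GRCm38), Cfb (chr17:34856374-34862518) and C2 (chr17:34862604-34898265) are neighbours on the minus strand, 85 bases apart. Their colon values nevertheless differed in spread, 1.80-fold for Cfb against 4.57-fold for C2. The gene model Gm20547 (chr17:34856412-34882042, minus strand) runs across both and shares 79.5% of the exon bases of Cfb and 42.8% of those of C2. It was given 0 to 6 counts in the colon and 0 to 53 in the blood, so the division of counts is uncertain. Zbtb12 overlaps C2 on the opposite strand with 161 shared exon bases, and the counting is not stated to use strand. The miRNA genes Mir6978 and Mir6972 lie inside C3 and Cfb, outside their exons, with at most 6 counts.

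C4b (chr17:34728380-34743882, minus strand) shares 34.6% of its 50-base exon windows with C4a, and C1ra (chr6:124512405-124523443, plus strand) shares 48.0% of its windows with C1rb, so reads could have been divided between the copies. C4a held 100 to 277 colon counts against 1652 to 19886 for C4b, and C1rb 60 to 274 against 917 to 8010 for C1ra. In the blood C4a lay above C4b in mice 2, 4 and 8, at 0.956, 0.238 and 0.389 CPM against 0.292, 0.0892 and 0. It lay below C4b in the blood of mice 1, 7 and 9. The low blood values of C4b are thus less certain. The others are at chr17:57203970-57228136 (C3, minus strand), chr2:84765387-84775444 (Serping1, minus strand), chr3:129835884-129875332 (Cfi, plus strand), chr6:122847138-122856161 (C3ar1, minus strand) and chr7:16246743-16259540 (C5ar1, minus strand).

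Since 7 of the genes had their 3 highest colon values in the same mice, the 250 bases before the RefSeq start (GRCm38.p6) were searched for motifs on both strands in the 4 genes whose promoter was matched by symbol, C3, C1ra, C3ar1 and C5ar1. C3, the gene of the widest colon range, and C3ar1, which had the narrowest range of these 4, are shown. Capitals in C3 mark matches to TTNNGNAA, a pattern of C/EBP sites, the binding sites of factors of the acute-phase response. In C3ar1 they mark the letters of a TATA box, TATAAA, 235 bases before the start. The C3 stretch is chr17:57228137-57228386 and the C3ar1 stretch chr6:122856158-122856407, both on the minus strand and written in the gene's direction.
C3: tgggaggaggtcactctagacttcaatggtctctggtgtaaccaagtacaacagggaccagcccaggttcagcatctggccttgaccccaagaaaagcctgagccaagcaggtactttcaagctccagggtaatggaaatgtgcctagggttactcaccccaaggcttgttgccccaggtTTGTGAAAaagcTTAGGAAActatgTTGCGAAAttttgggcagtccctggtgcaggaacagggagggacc
C3ar1: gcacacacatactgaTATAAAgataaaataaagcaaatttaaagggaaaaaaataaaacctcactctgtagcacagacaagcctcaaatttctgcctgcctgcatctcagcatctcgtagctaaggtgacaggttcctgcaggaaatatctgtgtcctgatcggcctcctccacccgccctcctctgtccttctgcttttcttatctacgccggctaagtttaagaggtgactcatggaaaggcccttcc

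In C3 the pattern stood at 3 places, 70, 58 and 45 bases before the start, as TTGTGAAA, TTAGGAAA and TTGCGAAA. It was held at least once by 36.8% of 32851 RefSeq promoters of this length and at 3 or more places by 2.61%. C1ra held it as TTCCCCAA and TTTCAAAA, 72 and 29 bases before the start, and C5ar1 as TTGGGGAA, 157 bases before it. C3ar1 had no match in this window. GENCODE starts both genes farther upstream than RefSeq, C1ra at chr6:124512405 and C5ar1 at chr7:16259540. By those starts, all matches given here for C1ra and C5ar1 lie inside the genes. GAAANNGAA, the core of the interferon-stimulated response element, was matched in C5ar1 and in 7.13% of promoters. TATAAA was matched in C3ar1, 235 bases before the start, and in 12.4% of promoters. The STAT pattern TTCNNNGAA (7.02% of promoters) and the NF-kB motif (3.90%) were matched in none of the 4. A match is a description of letters and not a site in use.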

How the data were processed

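Total RNA of colon and whole blood was sequenced in 12 libraries. Per the study's methods and the submitters' processing notes, the authors trimmed reads, removed ribosomal reads, mapped with STAR to GRCm38 and quantified with StringTie 1.3.4c on Ensembl annotation. The deposited counts are whole numbers that the authors derived from transcript coverage, so they are not a tally of reads. The deposited normalized tables hold values on a signal scale, each count divided by the authors by 1 factor per library, 0.664 to 1.31 in the blood and 0.791 to 1.21 in the colon. Those tables were made separately, so their values were compared within a tissue only. They list the mice in the order 1, 7, 9, 2, 4, 8, and no group was taken from that order. Groups came from the disease and tissue labels, and mouse numbers from the titles.

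Tests on the counts used edgeR 4.0.16 in R 4.3.3 (TMM, filterByExpr, glmQLFit, glmQLFTest, Benjamini-Hochberg over all genes tested). Each tissue was fitted alone for UC against control, and all 12 libraries together, as a means model, for the interaction, called at an adjusted p of at most 0.05, and for colon minus blood. TMM factors were 0.712 to 1.54 in the blood fit, 0.899 to 1.11 in the colon fit and 0.348 to 2.32 in the joint fit. Alternatives were RLE, library size only, other filters, DESeq2 1.42.0, limma-voom (limma 3.58.1), only genes of both normalized tables, adjusted p alone, each mouse left out in turn, and, in the joint fits, the mouse number as replicate block. Both tissues of a mouse bear its number in their titles, as the study sampled colon and blood in each animal. Deviations from the group means correlated between same-numbered libraries at r = 0.0073 to 0.233 across 15802 genes. Likeness was also computed with a pseudocount of 10 and a mean of at least 20. Symbols came from the deposited tables, and positions from GENCODE vM21, which held 53620 of the 53801 identifiers. Ranges of 3 libraries give the precision. Intervals and floors of 3 counts cover counting error only and take the deposited counts as reads, so they are approximate. On simulated data with a dispersion of 0.2, edgeR recovered 43.0% of genes changed 4-fold and 95.9% of those changed 8-fold among 21846 colon genes. For the interaction it recovered 7% and 43% among 22919 genes, and in the blood 51% and 98% among 16337. The square root of the fitted common dispersion was 0.503 in the colon fit, 0.417 in the blood fit and 0.4995 in the joint fit. The colon and joint data were thus more dispersed than simulated, so recovery there can be lower. In each simulation all genes had the same dispersion. In the blood the spread of C4b, C3 and C5ar1 exceeded that of 99.7%, 97.4% and 98.8% of genes with a mean of at least 100. In the colon all of the 8 tested genes but Cfb spread more than the median gene. Recovery of such genes can be lower than simulated in either tissue.

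The 9 genes and the lists (other complement genes; neutrophil, monocyte and macrophage, fibroblast, colon epithelium, endothelium, smooth muscle, hepatocyte, adipocyte, red cell, T cell, B cell and platelet markers) were chosen with earlier results of these data known. Named beside them were C4a and C1rb, any other complement gene called between labels, the 5 highest and 5 lowest called between tissues with a mean of at least 100 counts, the 3 genes most like each, overlapping genes, S100a8 and Lcn2, and the highest marker of each list.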

Additional observations from a re-analysis of the deposited data

How the results depend on the processing

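No complement gene was SDE between the labels, or passed the interaction, under any alternative run, the 45 other complement genes included. Of the log2FC between labels in the colon, 64 of 64 values under the settings other than leaving out a mouse kept their direction. The setting of adjusted p alone reuses the main fit, so its values among these could not differ. Leaving out each mouse in turn gave ranges of -1.07 to 0.092 for C2, -2.64 to 0.40 for C3, -0.25 to 0.20 for Cfb and -1.21 to 0.74 for C5ar1. In the blood, leaving out each mouse gave -1.59 to 4.58 for C4b, -0.56 to 1.17 for C3, -0.89 to 1.19 for Cfb and -0.89 to 1.88 for C5ar1. The log2FC of Cfb in the blood was 0.68 with limma-voom, and that of C3ar1 was -0.082 with library size only, where the median of all genes was -0.27. The interaction of Cfb was -0.68 with limma-voom, -0.24 with the replicate block, and -1.52 to 1.10 with each mouse left out. Causes of these differences were not tested.

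Between the tissues, 71 of 72 values of single genes outside the left-out mice kept their call, the exception being C5ar1 with library size only. Under adjusted p alone a call could not be lost. The number of SDE genes among the 9 was 6 to 9 with each mouse left out, the 9 including Cfi without mouse 2, and among the other complement genes it was 24 with only the genes of both tables and 35 with the adjusted p alone. The replicate block changed no call of the 9 genes. Without the filter on low counts the blood also gave values for C1ra, C2 and Serping1, none SDE. Of the genes most like each member, all 3 were shared in 7 of 17 cases and at least 2 in 11 of 17, both with a pseudocount of 10 and with a mean of at least 20, and none was shared in 5 of 17 with the former and 0 of 17 with the latter. Recovery was not simulated for changes as small as those measured between the labels in the colon.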

Other observations

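The 3 genes of C1q, the recognition part of the C1 complex, were named after their values were seen. C1qa was at 3131, 1285 and 1704 normalized counts in the colon of mice 1, 2 and 4, labelled UC, and at 4890.2, 1434 and 5013 in mice 7, 8 and 9, labelled control. C1qb had a colon range of 1325 to 5915 (median 2857) and C1qc of 1529 to 5484 (median 2676). In all 3 genes mice 1, 7 and 9 held the highest colon values. In the blood, C1qa was at 163 in mouse 1 and at 41.3 or less in the other 5.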
